A study of Homo sapiens with 4 samples.

Results

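The genes described here are 10 that write, maintain or remove DNA methylation or that form the core of a Polycomb complex. They are DNMT1, DNMT3A, DNMT3B, UHRF1, HELLS, TET2, TET3, EZH1, EZH2 and SUZ12, chosen by their symbols from the 18840 genes of the deposited table, and all 10 had a line in it. RNA-seq of polyadenylated RNA was done on MCF10A cells, an immortal, non-tumorigenic line of human breast epithelium that grows with basal features. The cells stably carried a pBabe retroviral vector in 1 of 4 forms: the empty vector, a vector for green fluorescent protein (GFP), a vector for the microRNA miR-105, or a vector for the transcription factor MYC. All 4 lines share the pBabe backbone and the same medium with serum, insulin, EGF, cholera toxin and hydrocortisone. Each construct had 1 library, so no value has a replicate and no p-value is given. The empty vector and GFP libraries serve as the controls, and the difference between them is the only measure of spread between libraries.

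Reads on named genes numbered 9138429 (vector), 14025115 (GFP), 6859698 (miR-105) and 9795159 (MYC). Levels are given in CPM, the counts of a gene scaled to a common library size with factors from the trimmed mean of M values (TMM), and 1 read was worth 0.108, 0.0722, 0.157 and 0.0948 CPM in the same order. Intervals are exact at the 95% level and cover counting error only, not variation between cultures. The MYC gene itself measured 207 CPM (vector), 198 CPM (GFP), 463 CPM (miR-105) and 232 CPM (MYC). Its highest level was therefore in the library labelled miR-105. The library labelled MYC was only 1.12-fold (interval 1.05 to 1.19) above vector and 1.17-fold (1.11 to 1.24) above GFP. The mRNA thus does not bear out that label, and libraries are named here by their labels alone. The basal keratin KRT5 stood at 1757 CPM in vector, 1614 in GFP, 4654 in miR-105 and 4138 in MYC, while the leukocyte gene PTPRC had at most 1 read and the fibroblast collagen COL3A1 had 0 reads in every library. Summed levels ran from 3.61 to 11.6 CPM for 6 leukocyte markers, from 27.4 to 158 CPM for 7 fibroblast markers (most of it DCN) and from 3.61 to 92.1 CPM for 4 endothelial markers (mainly KDR and PECAM1), each lowest in miR-105 and highest in MYC. Their part in the members' values was not tested.

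DNA methylation is placed on cytosines of CpG pairs. DNMT1 copies it to the new strand behind the replication fork, UHRF1 recognises the hemimethylated site and recruits DNMT1, and HELLS is a nucleosome remodeller that opens compact chromatin for methylation. DNMT3A and DNMT3B set methylation on unmethylated sites, and TET2 and TET3 oxidise methylcytosine as a step towards its removal. Polycomb repressive complex 2 (PRC2) trimethylates lysine 27 of histone H3 through EZH2 or its close relative EZH1, and SUZ12 is the scaffold that holds either enzyme. EZH2 is typical of dividing cells and EZH1 of resting ones. On GRCh38 with GENCODE 29, the maintenance genes lie at chr19:10133345-10231286 (DNMT1), chr19:4903080-4962154 (UHRF1) and chr10:94501434-94613905 (HELLS). The de novo enzymes lie at chr2:25227855-25342590 (DNMT3A) and chr20:32762385-32809356 (DNMT3B), and the dioxygenases at chr4:105145875-105279816 (TET2) and chr2:73986404-74108176 (TET3). The Polycomb genes lie at chr17:42700275-42745049 (EZH1), chr7:148807383-148884321 (EZH2) and chr17:31937018-32001045 (SUZ12).

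All 10 members averaged 1 CPM or more across the libraries, the condition for testing, which 12484 genes of the table met. A gene is counted as higher or lower when log2(CPM + 0.5) differed by at least 2-fold from the vector library and from the GFP library, both in the same direction. In the library labelled miR-105, 5 of the 10 members were higher, namely DNMT1, UHRF1, HELLS, DNMT3B and EZH2, and over all genes tested 14.7% were higher. Also in that library 2 members, DNMT3A and EZH1, were lower, against 16.6% of all genes tested. The members' median difference was 1.57 on the log2 scale, with a range of -2.29 to 5.54, beside a median of 0.01 over all genes tested. In the library labelled MYC 0 members were higher and 0 were lower, against 9.03% and 10.4% of all genes tested. There the members' median was 0.47 (range -0.20 to 1.55) and that of all genes 0.04. The 10 genes were proposed with earlier results of these data in view, so these shares describe the members and are no test of them.

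**Figure D1:**
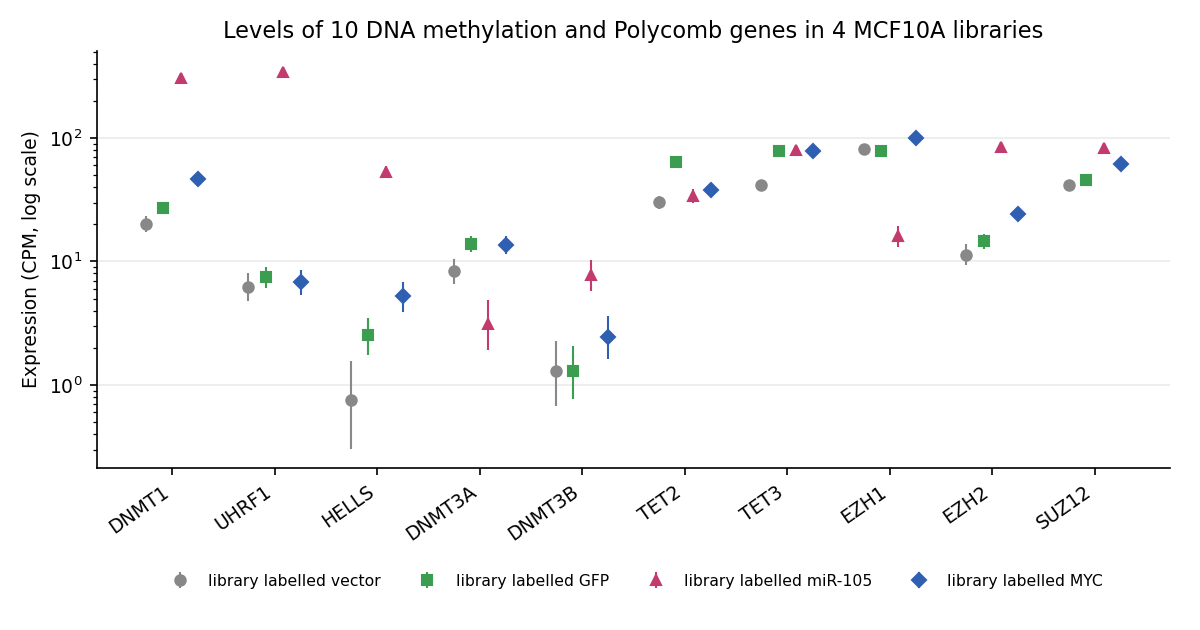
Level of each member in each library, in CPM on a log axis; bars are exact 95% Poisson intervals and 1 symbol is 1 library. UHRF1 reached 343 CPM in the library labelled miR-105 against at most 7.51 elsewhere, and EZH1 stood at 16 CPM there against at least 78.4 elsewhere.

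The maintenance arm showed the largest values. UHRF1, the reader of hemimethylated DNA, stood at 6.27 CPM in vector (58 reads), 7.51 in GFP (104 reads), 343 in miR-105 (2186 reads) and 6.83 in MYC (72 reads). The miR-105 library stood apart and the other libraries lay close together. UHRF1 was 54.7-fold (interval 42.1 to 72.3) above vector and 45.6-fold (37.5 to 56.1) above GFP, and it ranked 27 from the top of the 12484 genes by its mean log2 difference. In the library labelled MYC its ratio was 1.09 (0.760 to 1.57) to vector and 0.909 (0.663 to 1.24) to GFP, and the sign of its mean difference there turned from negative to positive with scaling by library totals.

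DNMT1, the maintenance methyltransferase, stood at 20.2 CPM in vector (187 reads), 27.0 in GFP (374 reads), 307 in miR-105 (1958 reads) and 46.4 in MYC (489 reads). The miR-105 library was highest and the library labelled MYC came next, above both controls. DNMT1 was 15.2-fold (13.1 to 17.7) above vector and 11.4-fold (10.2 to 12.7) above GFP in miR-105. The corresponding ratios in MYC were 2.29 (1.93 to 2.73) and 1.72 (1.5 to 1.97), which met the 2-fold rule against vector only, and the controls themselves differed by 1.34-fold (1.12 to 1.60).

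HELLS, the remodeller, had 7 reads in vector (0.757 CPM), 35 in GFP (2.53 CPM), 340 in miR-105 (53.3 CPM) and 55 in MYC (5.21 CPM). It was the member with the widest gap between the controls, GFP being 3.34-fold (1.46 to 8.91) above vector. In miR-105 it stood 70.5-fold (33.8 to 177) above vector and 21.1-fold (14.9 to 30.8) above GFP. In MYC the ratios were 6.89 (3.13 to 17.9) and 2.06 (1.33 to 3.25), so the size of any difference rests on which control is used. On the log2(CPM + 0.5) scale HELLS missed the 2-fold rule against GFP, and it met the rule with 0.1 CPM added or with scaling by library totals.

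The reads of UHRF1 per read of DNMT1 were 0.310 (0.227 to 0.418) in vector, 0.278 (0.222 to 0.346) in GFP, 1.12 (1.05 to 1.19) in miR-105 and 0.147 (0.113 to 0.189) in MYC. UHRF1 reads thus outnumbered DNMT1 reads in the miR-105 library alone. In the library labelled MYC the ratio lay below that of either control, with an interval that did not overlap theirs.

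The de novo methyltransferases went in opposite directions in miR-105. DNMT3A stood at 8.32 CPM in vector (77 reads), 13.9 in GFP (193 reads), 3.14 in miR-105 (20 reads) and 13.7 in MYC (144 reads). The miR-105 library was lowest, 2.65-fold (1.61 to 4.58) below vector and 4.44-fold (2.80 to 7.44) below GFP. GFP was itself 1.67-fold (1.28 to 2.21) above vector, and the library labelled MYC had a ratio of 1.64 (1.24 to 2.19) to vector and 0.979 (0.784 to 1.22) to GFP. With a 4-fold rule DNMT3A was no longer counted as lower in miR-105.

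DNMT3B stood at 1.30 CPM in vector (12 reads), 1.30 in GFP (18 reads), 7.84 in miR-105 (50 reads) and 2.46 in MYC (26 reads). Its reads were the fewest of any member in GFP and in MYC, and the intervals are wide. The miR-105 library was 6.04-fold (3.17 to 12.5) above vector and 6.03-fold (3.46 to 11) above GFP. In MYC the ratios were 1.90 (0.926 to 4.13) and 1.90 (1.00 to 3.67).

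The sum of DNMT3A and DNMT3B stood at 9.62 CPM in vector, 15.2 in GFP, 11 in miR-105 and 16.1 in MYC. The miR-105 value lay between those of the controls, while the make-up of the sum differed. DNMT3B had 0.156 reads (0.0772 to 0.288) per read of DNMT3A in vector, 0.0933 (0.0541 to 0.151) in GFP, 2.50 (1.46 to 4.43) in miR-105 and 0.181 (0.114 to 0.276) in MYC. DNMT1 had 2.43 reads (1.85 to 3.21) per read of DNMT3A in vector, 1.94 (1.62 to 2.32) in GFP, 97.9 (63.2 to 161) in miR-105 and 3.40 (2.81 to 4.12) in MYC.

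The methylcytosine dioxygenases showed no difference from both controls. TET2 stood at 30.2 CPM in vector (279 reads), 63.4 in GFP (878 reads), 33.9 in miR-105 (216 reads) and 38.0 in MYC (401 reads). GFP was the high library, 2.10-fold (1.84 to 2.41) above vector. In miR-105 TET2 had a ratio of 1.12 (0.936 to 1.35) to vector and was 1.87-fold (1.61 to 2.18) below GFP. In MYC it was 1.26-fold (1.08 to 1.47) above vector and 1.67-fold (1.48 to 1.88) below GFP, so both libraries lay between the controls.

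TET3 stood at 41.4 CPM in vector (383 reads), 78.4 in GFP (1086 reads), 79.7 in miR-105 (508 reads) and 78.0 in MYC (823 reads). Here vector was the low library and the other libraries lay together. The ratio of miR-105 to GFP was 1.02 (0.912 to 1.13) and that of MYC to GFP 0.995 (0.907 to 1.09), while GFP was 1.89-fold (1.68 to 2.13) above vector. The reads of TET3 per read of TET2 were 1.37 (1.17 to 1.61) in vector, 1.24 (1.13 to 1.35) in GFP, 2.35 (2 to 2.77) in miR-105 and 2.05 (1.82 to 2.32) in MYC, higher in both construct libraries than in either control. TET1, the third gene of that family, had 9, 48, 30 and 5 reads in the order vector, GFP, miR-105 and MYC.

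The controls differed for long mRNAs as a class. Over all genes tested between GFP and vector, 3.06% were at least 2-fold higher in GFP and 1.03% lower. Of the members, HELLS and TET2 were higher and 0 were lower. Among the 12118 tested genes with a GENCODE mRNA length, the median log2 difference of GFP from vector was -0.31 for the 2929 genes under 2 kb and -0.03 for the 4744 genes of 2 to 4 kb. It was 0.30 for the 3544 genes of 4 to 8 kb and 0.65 for the 901 genes of 8 kb or more. The 3 members of that longest class are DNMT3A, TET2 and TET3, and their GFP to vector ratios of 1.67, 2.10 and 1.89 stood beside a class median of 1.57. The part of mRNA length or RNA quality in these ratios was not tested. For the longest class the median was 0.30 over vector and -0.37 over GFP in miR-105, and 0.39 over vector and -0.24 over GFP in MYC. These opposite shifts average to -0.02 in miR-105 and 0.07 in MYC, while the ratios to each single control carry them.

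**Figure D2:**
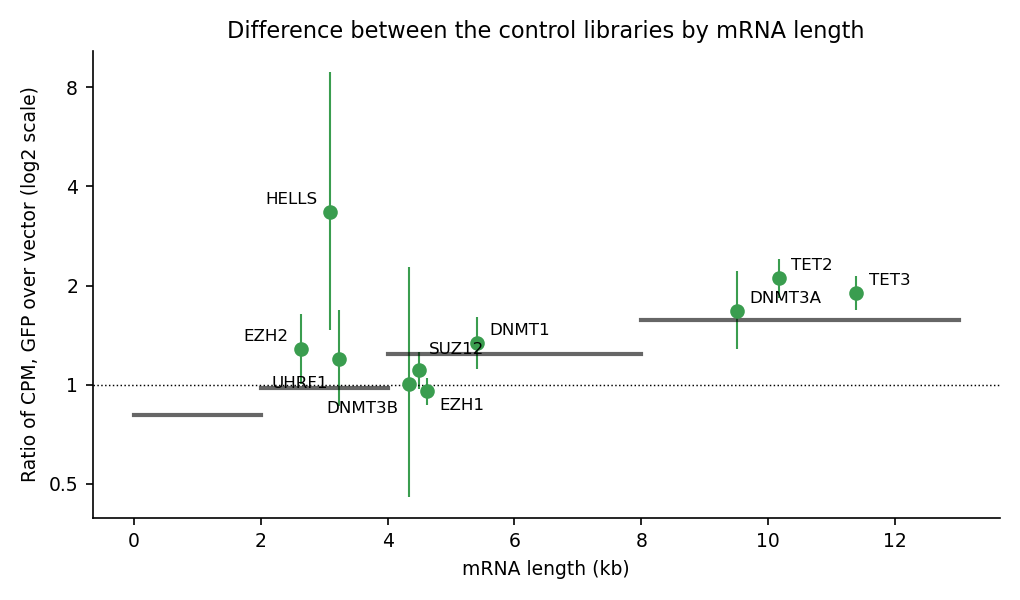
Ratio of CPM between the GFP and vector libraries (log2 axis) against mRNA length for the 10 members; bars are exact 95% intervals from read counts and horizontal lines are medians over all tested genes in 4 length classes. The medians climb with length, and TET2 (2.10) and TET3 (1.89) lie at the long end.

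EZH1 and EZH2, the alternative enzymes of PRC2, exchanged places. EZH2 stood at 11.4 CPM in vector (105 reads), 14.5 in GFP (201 reads), 84.5 in miR-105 (539 reads) and 24.5 in MYC (258 reads). The miR-105 library was 7.45-fold (6.03 to 9.27) above vector and 5.82-fold (4.94 to 6.88) above GFP. The library labelled MYC was 2.15-fold (1.71 to 2.73) and 1.68-fold (1.40 to 2.04) above them, past 2-fold for vector only.

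EZH1 stood at 82.2 CPM in vector (760 reads), 78.4 in GFP (1085 reads), 16 in miR-105 (102 reads) and 100.2 in MYC (1057 reads). The controls lay close together, with GFP 1.05-fold (0.954 to 1.15) below vector. The miR-105 library was 5.14-fold (4.17 to 6.38) below vector and 4.90-fold (4 to 6.06) below GFP, and EZH1 ranked 721 from the bottom of the 12484 genes. The library labelled MYC was 1.22-fold (1.11 to 1.34) and 1.28-fold (1.17 to 1.39) above the controls.

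The sum of EZH1 and EZH2 stood at 93.5 CPM in vector, 92.9 in GFP, 101 in miR-105 and 125 in MYC. Reads of EZH2 per read of EZH1, a ratio within a library that needs no scaling between libraries, were 0.138 (0.112 to 0.170) in vector, 0.185 (0.159 to 0.216) in GFP, 5.28 (4.27 to 6.60) in miR-105 and 0.244 (0.212 to 0.280) in MYC. Per base of mRNA the ratio of EZH2 to EZH1 was 0.242, 0.325, 9.26 and 0.428 in the same order. EZH1 mRNA was therefore the more abundant of the pair in both controls and in MYC, and EZH2 mRNA in miR-105.

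SUZ12, the scaffold, stood at 41.5 CPM in vector (384 reads), 45.9 in GFP (635 reads), 83.3 in miR-105 (531 reads) and 61.7 in MYC (651 reads). It was 2.01-fold (1.76 to 2.29) above vector and 1.82-fold (1.61 to 2.04) above GFP in miR-105, which fell short of the rule for GFP. In MYC the ratios were 1.49 (1.31 to 1.69) and 1.35 (1.20 to 1.5). Reads of SUZ12 are uncertain because the genome holds a partial pseudogene copy of it, and how such reads were counted is not given in the sources used here. EZH2 had 0.273 reads (0.218 to 0.340) per read of SUZ12 in vector, 0.317 (0.269 to 0.372) in GFP, 1.02 (0.899 to 1.15) in miR-105 and 0.396 (0.342 to 0.458) in MYC.

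**Figure D3:**
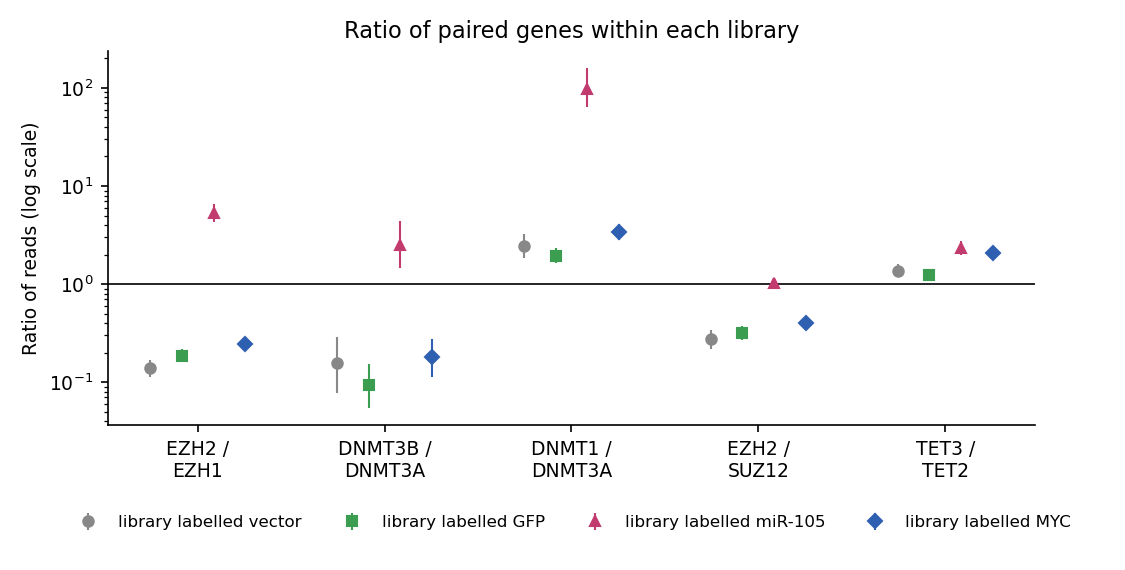
Ratio of reads of paired members within each library, on a log axis; bars are exact 95% intervals and the line marks equal reads. The EZH2 to EZH1 and DNMT3B to DNMT3A ratios cross 1 in the library labelled miR-105 only, at 5.28 and 2.50.

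The order of the members within a library can be compared only per length, in CPM per kilobase of mRNA. In vector it ran from EZH1 (17.8) and SUZ12 (9.24) through EZH2 (4.30), DNMT1 (3.74), TET3 (3.64), TET2 (2.97) and UHRF1 (1.94) to DNMT3A (0.876), DNMT3B (0.299) and HELLS (0.244). The counting intervals of EZH2, DNMT1 and TET3 overlapped, as did those of DNMT1, TET3 and TET2 and those of DNMT3B and HELLS. In miR-105 it ran from UHRF1 (106), DNMT1 (56.8) and EZH2 (32) through SUZ12 (18.5), HELLS (17.2) and TET3 (7) to EZH1 (3.46), TET2 (3.33), DNMT3B (1.81) and DNMT3A (0.330). SUZ12 and HELLS overlapped there, as did EZH1 and TET2. EZH1 was first of the 10 in vector and UHRF1 first in miR-105.

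Set directly against the library labelled MYC, the library labelled miR-105 had 5 members at least 2-fold higher, against 19.0% of all genes tested, and 2 lower, against 19.8%. UHRF1 was 50.2-fold (39.7 to 64.4) higher, HELLS 10.2-fold (7.67 to 13.9), DNMT1 6.62-fold (6 to 7.33), EZH2 3.46-fold (2.97 to 4.02) and DNMT3B 3.18-fold (1.94 to 5.32). EZH1 was 6.26-fold (5.11 to 7.75) lower and DNMT3A 4.35-fold (2.72 to 7.34) lower. These are the members that were also counted against the controls.

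**Figure D4:**
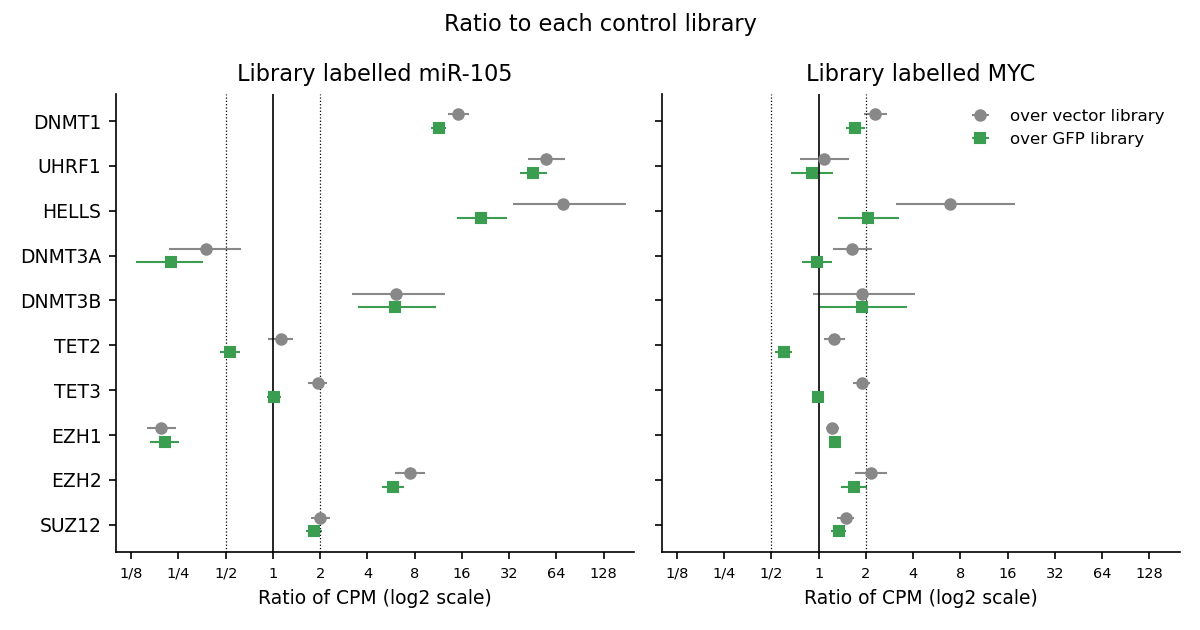
Ratio of CPM of the libraries labelled miR-105 (left) and MYC (right) to the vector and GFP libraries, on a log2 axis; bars are exact 95% intervals from read counts and dotted lines mark 2-fold. HELLS (70.5), UHRF1 (54.7) and DNMT1 (15.2) lie farthest right against vector in miR-105, and in MYC HELLS (6.89) lies farthest right against vector.

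Of the 5 members that were higher in miR-105, DNMT1, UHRF1, HELLS and EZH2 hold short words of the E2F type near a start site, and the stretches below show these beside the 2 other members that hold one. The windows searched are those of RefSeq (GRCh38.p14), each of 300 bases around an annotated start. The words are TTTCCCGC, TTTGGCGC, TTTCGCGC and TTTGCCGC on either strand, common forms of the E2F site, and none contains another. Each stretch is written 5′ to 3′ on the gene's own strand, with the match in capitals.

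DNMT1, minus strand, chr19:10194934-10194991: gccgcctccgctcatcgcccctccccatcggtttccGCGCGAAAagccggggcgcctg

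UHRF1, plus strand, chr19:4909451-4909520: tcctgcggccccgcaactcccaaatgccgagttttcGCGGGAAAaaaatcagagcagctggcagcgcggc

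HELLS, plus strand, chr10:94545676-94545807: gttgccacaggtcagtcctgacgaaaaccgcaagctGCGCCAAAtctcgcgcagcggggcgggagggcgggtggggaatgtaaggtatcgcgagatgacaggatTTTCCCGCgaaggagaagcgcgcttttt

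EZH2, minus strand, chr7:148884272-148884326: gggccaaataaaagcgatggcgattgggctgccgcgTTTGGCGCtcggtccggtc

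EZH1, minus strand, chr17:42745112-42745191: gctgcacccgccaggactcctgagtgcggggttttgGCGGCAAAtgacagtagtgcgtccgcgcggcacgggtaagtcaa

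SUZ12, plus strand, chr17:31936782-31936861: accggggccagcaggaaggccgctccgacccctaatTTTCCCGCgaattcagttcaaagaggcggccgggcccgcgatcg

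Of the 10 members, 6 had at least 1 of these words in at least 1 window, beside 1090 of 27305 genes (3.99%) and 1164 of 35116 windows (3.31%). The words contain CpG, and the members' windows that hold one have 22 to 46 CpG pairs, against a median of 14 over all windows. Windows of like CpG content were not compared. The 6 were not all higher: EZH1, which was lower in miR-105, holds the word in its only window, and SUZ12 fell short of the rule. UHRF1 held a word in a second of its windows too, and HELLS held 2 words in 1 window. No word was found in the windows of DNMT3A, TET2 and TET3, nor in the single DNMT3B window (chr20:32779602-32779901). The DNMT3B window lies downstream of the first base of the GENCODE gene span, as do the windows shown for DNMT1, UHRF1 and HELLS, so a start at that first base was not searched in these genes. The MYC and MAX word CACGTG was found in windows of DNMT3A, TET2 and TET3, beside 8.77% of genes, and in none of the other members. A match says only that these letters are present in a window.

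Words of the miR-105 seed were looked for in the mRNAs, since 1 library is labelled with a miR-105 vector; the level of miR-105 itself was not analysed here, and the label was not checked by it. The mature miR-105-5p of RefSeq is encoded on the minus strand at chrX:152392265-152392287 and again at chrX:152394458-152394480. Its seed is in capitals below, followed by target stretches with the match in capitals. A match was either to the full seed, or to bases 2 to 7 of the microRNA followed by an A. The SUZ12 stretches hold the full seed match and the A, and the TET2 stretch holds bases 2 to 7 and the A. The base given is the first capital for SUZ12 and the base before the capitals for TET2.

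miR-105-5p: uCAAAUGCucagacuccuguggu

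SUZ12, base 860 of the 3′ UTR: gaaagaacGCATTTGAgattttaa

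SUZ12, base 1916 of the 3′ UTR: atgataaaGCATTTGAatggtaca

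TET2, base 2652 of the 3′ UTR: agccccaaaCATTTGAttactaca

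Matches of either kind were present in 3 of 10 members, SUZ12 with 2, TET2 with 1 and TET3 with 3. By the same count they were present in 3984 of 17574 genes (22.7%) with a 3′ UTR in the GENCODE annotation. The median 3′ UTR of these 17574 genes was 899 bases, against 2042 in SUZ12, 3297 in TET2 and 6000 in TET3. Genes of like 3′ UTR length were not compared. The matches of TET2 and TET3 were all to bases 2 to 7 and an A. The 2 members that were lower in miR-105 held no match: the DNMT3A 3′ UTR of 6424 bases and the EZH1 3′ UTR of 2257 bases have none. SUZ12, with 2 matches of the full seed and an A, was 2.01-fold above vector and 1.82-fold above GFP in miR-105, short of the rule for GFP. DNMT1, DNMT3B, UHRF1, HELLS and EZH2 held none, in 3′ UTRs of 321, 1453, 329, 477 and 261 bases in that order.

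The other PRC2 partners were mixed. Of 10 genes in that list, all tested, 3 were higher and 1 lower in miR-105 (median 0.60), and 0 were higher and 1 lower in MYC (median 0.28). For this list and those that follow, the shares over all genes tested were 14.7% higher and 16.6% lower in miR-105. In MYC they were 9.03% and 10.4%. PHF19, a Polycomb-like accessory protein, stood at 9.62 CPM in vector, 6.14 in GFP, 140 in miR-105 and 15.1 in MYC, 14.5-fold (11.7 to 18.3) and 22.8-fold (18.2 to 28.8) above the controls in miR-105. PHF1, its paralog, went the other way at 64.5, 45.5, 11.3 and 43.6 CPM, 5.72-fold (4.47 to 7.40) and 4.03-fold (3.15 to 5.22) below the controls in miR-105. EPOP (5.30, 4.26, 22.6 and 10.1 CPM) and the histone chaperone RBBP7 (85.1, 81.4, 226 and 123 CPM) were higher in miR-105. The core subunit EED (21.6, 19.3, 39.8 and 17.4 CPM) and RBBP4 (126, 142, 187 and 188 CPM) met the rule in neither library. JARID2, which brings PRC2 to chromatin, was lower in MYC, at 58.8, 56.6, 52.2 and 27.3 CPM.

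PRC1, the complex that ubiquitylates histone H2A, had few genes that met the rule. Of 20 tested subunits 2 were higher and 1 lower in miR-105 (median 0.07), and 0 were counted in MYC (median 0.05). The largest difference was that of CBX7, a reader of the EZH enzymes' mark, with 404, 539, 6 and 373 reads in the order vector, GFP, miR-105 and MYC. It was 46.4-fold (21.1 to 127) below vector and 41.4-fold (18.9 to 113) below GFP in miR-105. Its relative CBX2 was higher there (15.9, 22, 51.6 and 13.7 CPM), as was PCGF6 (7.46, 5.56, 19.0 and 10.2 CPM). EZH1, PHF1 and CBX7 were thus lower while EZH2, PHF19 and CBX2 were higher in miR-105. These pairs were put side by side after their values were seen.

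Among 11 genes that oppose Polycomb, all tested, 1 was higher and 1 lower in miR-105 (median -0.04) and 0 were counted in MYC (median 0.12). NSD2, which methylates lysine 36 of histone H3, was 7.07-fold (6.37 to 7.86) above vector and 4.91-fold (4.55 to 5.31) above GFP in miR-105, at 47.0, 67.7, 333 and 101 CPM. The lysine 27 demethylase KDM6B was lower, at 63.7, 85.7, 25.9 and 48.3 CPM.

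Among the partners and readers of DNA methylation, 15 of 16 were tested. In miR-105, 2 were higher and 2 lower (median 0.24), and in MYC 1 was higher and 1 lower (median 0.22). CDCA7, which anchors HELLS to nucleosomes, stood at 1.95 CPM in vector, 1.95 in GFP, 109 in miR-105 and 20.8 in MYC. It was 55.8-fold (35 to 94.7) above vector in miR-105 and 10.7-fold (6.59 to 18.3) above it in MYC, where it was the one higher gene of the list. The base excision enzyme TDG, which acts after the TET enzymes, was higher in miR-105 (27.9, 36, 77.6 and 48.4 CPM). MBD4, another glycosylase, was lower in both libraries (182, 228, 77.5 and 52.0 CPM), and the methyl-CpG reader ZBTB4 in miR-105 (166, 206, 56.9 and 103 CPM). UHRF2, the paralog of UHRF1, met the rule in neither, at 63.4, 71.2, 79.5 and 63.0 CPM, nor did the reader MBD2 at 100.4, 87.6, 119 and 105 CPM.

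Of 10 genes for lysine 9 methylation of histone H3 and its HP1 readers, 4 were higher and 0 lower in miR-105 (median 1.03), and 0 were counted in MYC (median 0.24). The 4 were SUV39H1 (6.05, 4.33, 34.2 and 5.69 CPM), SUV39H2 (4.97, 7.30, 35.1 and 9.58 CPM), CBX5 (65.9, 92.6, 399 and 179 CPM) and CBX1 (65.5, 67.3, 139 and 72.4 CPM). AHCY, which clears the by-product of methylation, was 2.40-fold (2.27 to 2.53) above vector and 2.96-fold (2.82 to 3.11) above GFP in MYC.

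**Figure D5:**
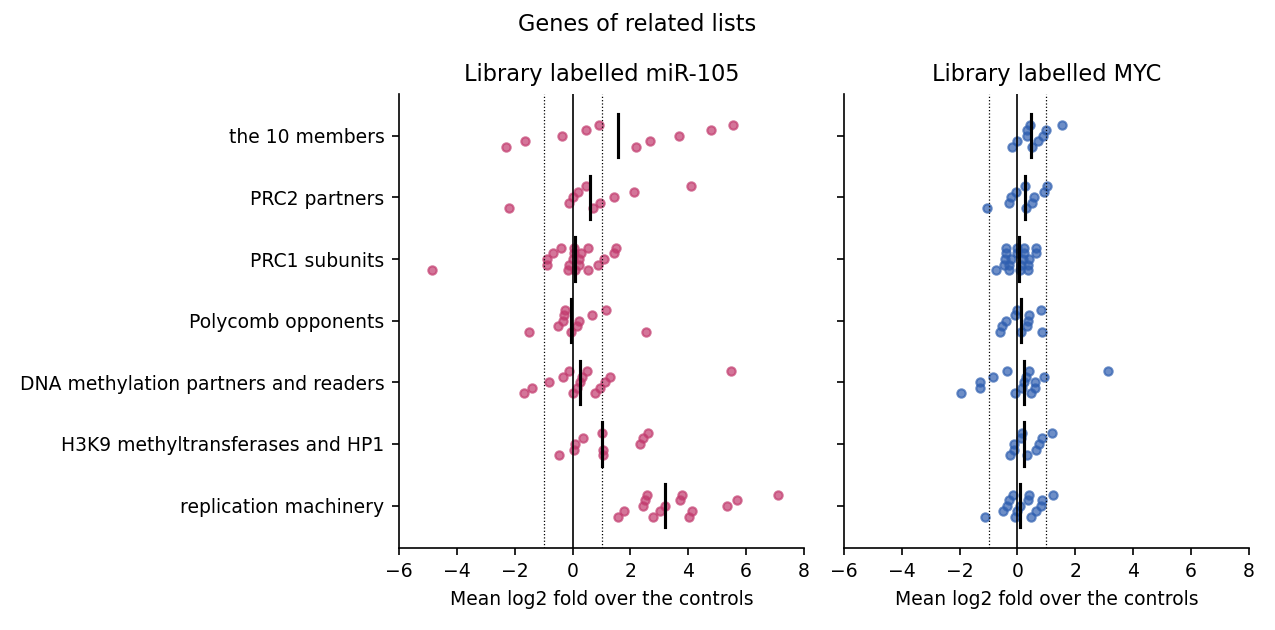
Mean log2 difference from both controls for each tested gene of the members and of 6 related lists, in the libraries labelled miR-105 (left) and MYC (right); 1 point is 1 gene, black bars are list medians and dotted lines mark 2-fold. In miR-105 all 15 replication genes lie to the right of 1, with a median of 3.18, while the members spread from -2.29 to 5.54.

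DNA replication genes were higher in miR-105 alongside the maintenance arm. Of 15 tested genes of the replication machinery, 15 were higher in miR-105 (median 3.18, range 1.58 to 7.10) and 0 were counted in MYC (median 0.10). Their median level was 11 CPM in vector, 11.9 in GFP, 168 in miR-105 and 14.8 in MYC, and the proliferation gene MKI67 stood at 11.4, 14.9, 1169 and 36.3 CPM. In miR-105, DNMT1 (3.69), HELLS (4.79) and UHRF1 (5.54) had mean log2 differences within the range of the replication genes, as had EZH2 (2.67) and DNMT3B (2.21). In MYC the replication genes ranged from -1.12 to 1.23, and HELLS (1.55) lay above that range while DNMT1 (0.97), EZH2 (0.90), DNMT3B (0.72) and UHRF1 (-0.01) lay within it. The part of the share of dividing cells in the members' values was not tested, and in bulk RNA more cells with a transcript and more transcript per cell cannot be told apart.

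Profiles over the 4 libraries were compared by the Euclidean distance between centred log2(CPM + 0.5) values among the 10856 genes averaging 5 CPM or more. Those nearest DNMT1 were LMNB2 (0.19), TIMELESS (0.23) and INSIG1 (0.28). Nearest UHRF1 were SKA1 (0.24), DDIAS (0.27) and KNL1 (0.40), and nearest EZH2 were HS3ST3A1 (0.15), TMEM201 (0.16) and NSD2 (0.16). SKA1 (0.541, 0.506, 51.0 and 0.474 CPM), DDIAS (0.865, 0.867, 54.9 and 0.664 CPM) and KNL1 averaged 5 CPM through miR-105 alone. Outside miR-105, SKA1 and DDIAS lay near the 0.5 CPM added before log2, so their distances to UHRF1 depend on it. Among the 9 members averaging 5 CPM or more the closest pair was TET3 and SUZ12 (0.66), followed by TET2 and TET3 (0.77) and by DNMT3A and EZH1 (0.79). DNMT3B averaged under 5 CPM, with 12 to 50 reads a library, and its distance to EZH2 was 0.45. For genes that the miR-105 library sets far apart, such as DNMT1, UHRF1 and EZH2, such distances over 4 libraries mostly reflect the size of that difference. For TET2 and TET3 it was a control that stood apart, GFP as the high library and vector as the low one.

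Genes that DNA methylation or Polycomb usually keeps silent mostly fell below the mean CPM needed for testing. Of 16 germline genes, 1 was tested, SYCP3, which had 57 reads in vector, 56 in GFP, 3 in miR-105 and 20 in MYC. It was 13.1-fold (4.26 to 65.4) below vector and 8.60-fold (2.79 to 42.9) below GFP in miR-105. The summed level of the germline genes was 8.43 CPM in vector, 4.98 in GFP, 0.784 in miR-105 and 4.08 in MYC. Most of each sum was SYCP3 itself or, in MYC, a large part of it, at 6.16, 4.05, 0.471 and 1.90 CPM. Of 15 developmental regulators known as Polycomb targets 2 were tested and 0 were counted in either library. The summed level of the 15 was 10.8, 8.38, 9.57 and 10.7 CPM, most of it GATA6 at 5.95, 7.01, 6.74 and 6.35 CPM. Of those regulators 3 were at 0 reads in vector and 11, 12 and 11 in the other libraries. Of all genes, 1309 had reads in the vector library alone, against 179 in GFP alone, 37 in miR-105 alone and 239 in MYC alone, so genes with reads in a single library were most numerous in vector.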

How the data were processed

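RNA-seq of 4 MCF10A lines, 1 library per construct, was analysed. Per the submitters' processing notes, TopHat2, edgeR and the hg19 build were used; neither versions nor the counter, nor whether strand was used, could be read from these notes. The deposited table holds a normalized signal per gene, with 18859 lines of which 19 repeat a symbol. Its values had the form of pseudo-counts at a common library size, and solving that transformation (common dispersion 0.05528) returned whole reads for 100% of values within a tolerance of 1e-05. The design had assumed counts, and no count model was run. The recovered reads were divided by library totals and TMM factors (1.0122, 0.9871, 0.9295 and 1.0768 for vector, GFP, miR-105 and MYC) to give CPM, and 0.5 CPM was added before log2. Ratios carry exact conditional binomial intervals, levels exact Poisson intervals. The recovery and the calling rule were checked on simulated data. The work used Python 3.11.15, numpy 2.4.6, scipy 1.17.1 and R 4.3.3. Gene spans, mRNA lengths and 3′ UTRs came from GENCODE 29 and promoters and miR-105 from RefSeq, both GRCh38, matched by symbol; all 10 members matched. No exon of another gene in the basic GENCODE set overlaps an exon of a member. MCM2, PCGF5 and the epithelial marker KRT8 were not analysed here.

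The members and the lists were chosen with earlier results of these data known. Named genes are all members, up to 4 genes per list and library with the largest difference among those at least 2-fold from both controls, and fixed direct partners (EED, RBBP4, RBBP7, JARID2, UHRF2, CDCA7, TET1, MBD2). Alternatives changed the scaling, the control, the threshold, the added CPM and the filter. Leaving out a replicate was not possible with 1 library per construct. A list of methyl donor genes was also read, and its result is not reported here apart from AHCY.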

Additional observations from a re-analysis of the deposited data

Results flagged for a closer look

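EZH1 had a mean log2 difference from the controls of -2.29 in the library labelled miR-105 and of 0.32 in the library labelled MYC. The signs are opposite against each of the control libraries. The difference between the libraries was not tested, since each construct has 1 library.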

How the results depend on the processing

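No paired analysis was possible because each construct had 1 library. In miR-105 the number of members at least 2-fold from both controls was 7 and ran from 6 to 8. In MYC it was 0, and it became 1 (HELLS) with library totals alone or with 0.1 CPM added. It became 3 with vector alone as the control (DNMT1, HELLS and EZH2) and 4 with a 1.5-fold threshold (DNMT1, DNMT3B, HELLS and EZH2). Over all genes tested in MYC, 1286 were higher and 1169 lower with library totals alone. These counts were 1188 and 1388 with 0.1 CPM added, and 1624 and 1573 with vector alone. The members' median log2 difference in miR-105 was 1.57, and 0.92 over the 9 members with a mean of at least 5 CPM. No called value reversed. Of the alternative values of the main results, 47 were unchanged within counting error or 1.5 times the count, and 4 moved. Some of the 47 could not have moved, so their number is no measure of stability. The EZH2 to EZH1 ratio within a library needs no scaling, and every member already passed the filter before it was lifted. In MYC, 0 members at 2-fold fixed 0 at 4-fold. Small values without a call changed sign: TET2 in both libraries and UHRF1 in MYC with vector alone, and DNMT3A and TET3 in MYC with GFP alone. Scaling by library totals moved the median of all genes to -0.09 in miR-105 and 0.14 in MYC. Counting error limits DNMT3B, DNMT3A in miR-105 and HELLS in vector most. Over all genes tested, 1833 were higher and 2071 lower in miR-105, against 2997 and 3088 with a 1.5-fold and 565 and 786 with a 4-fold threshold. In MYC 1127 and 1299 became 2071 and 2146, and 391 and 499.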
